A study of Mus with 8 samples.

Results

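The cells described here are progenitors that carried RNA of the neutrophil granule proteases Elane, Ctsg and Prtn3 in Lin-Kit+ (LK) cells of mice 14 days old (P14). A barcode was called a cell at 7500 or more gene UMI (unique molecular identifiers, the counted RNA molecules) and at most 10% mitochondrial UMI. A called cell was chosen where its UMI of the 3 genes summed to 10 or more per 10000 gene UMI. This gave 727 of 2411 called cells in the Ifnar+/- library and 864 of 3885 in the Ifnar-/- library, 1591 cells in all, out of 35549 called cells in the series. They are called protease-positive cells below. The measured values of these genes chose the cells, so their high levels are a description and not a finding.

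The study asks how interferon regulates blood formation in newborns. The assay was CITE-seq, in which the RNA of a single cell and 10 antibody tags on its surface are counted together. The 8 libraries cover LK cells and Lin-Sca1+Kit+ (LSK) cells, newborn (P0) and P14 mice, and the Ifnar+/- and Ifnar-/- genotypes. The groups used here are P14 LK Ifnar+/- and P14 LK Ifnar-/-, and the P0 LK libraries of both genotypes for comparison of age. The control carries 1 targeted copy as well, so no group is Ifnar+/+. The gene is named Ifnar in the labels, with no subunit number, and neither the organ, the allele nor how many animals were pooled is given there. Each group had 1 library, so no value below has a replicate error and no test between groups could be made. Intervals are 95% and cover counting error only.

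Neutrophils arise from granulocyte-monocyte progenitors, which also give monocytes. The first granules to form, the azurophil granules, hold Mpo and the serine proteases Elane, Prtn3 and Ctsg, and their genes are transcribed early. Genes of the later specific granules, such as Ltf, Camp and Ngp, follow under the transcription factor Cebpe, after Kit and Cd34 have been lost. Type I interferon acts on these cells through the receptor chains Ifnar1 and Ifnar2 and raises a common set of response genes.

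The 2 libraries differed in the sex of their cells. Among protease-positive cells with sex-specific transcripts of 1 kind, 67.0% (63.1 to 70.8) carried male transcripts in Ifnar+/- and 32.4% (28.9 to 35.9) in Ifnar-/-. Sex makeup and genotype therefore move together, and values within male and female cells are given beside the main genotype results. The protease-positive cells had a median of 46304 gene UMI in Ifnar+/- and 40533 in Ifnar-/-, against 33233 and 31006 in the other called cells. They detected a median of 6258 and 5887 genes, and mitochondrial UMI made up 3.66% and 3.54%. The libraries shared 6 called barcodes, none of them protease-positive in both.

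The protease sum had a long upper range. Its median was 54.9 UMI per 10000 in Ifnar+/- (range 10.04 to 381.2) and 49.7 in Ifnar-/- (10.05 to 426.7), against 0.922 and 1.003 in the other cells. No empty gap lay at the threshold. The 5 cells just inside it had sums of 10.036 to 10.149 in Ifnar+/- and 10.053 to 10.204 in Ifnar-/-, and the 5 just outside had 9.695 to 9.9408 and 9.8433 to 9.9385. Between 5 and 10 per 10000 lay 139 Ifnar+/- and 257 Ifnar-/- cells, and between 10 and 20 lay 129 and 172. Cells thus lay closely on both sides of the threshold, and its place sets how many are counted.

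**Figure D1:**
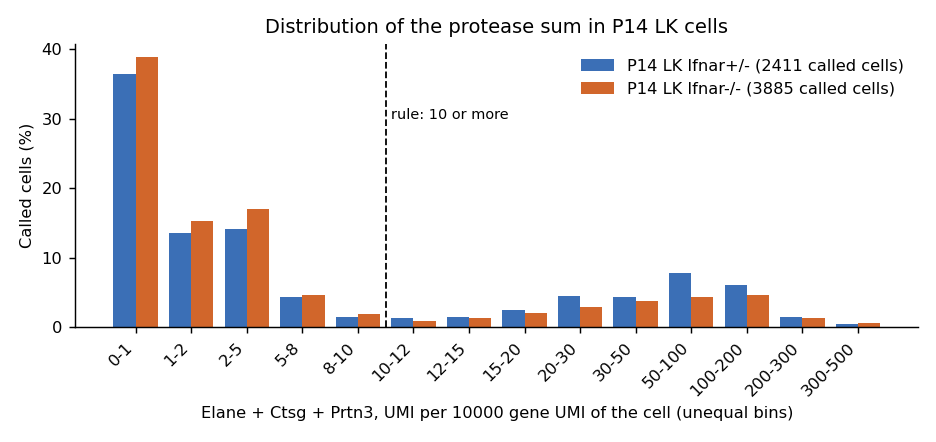
Share of called cells (%) in bins of the summed Elane, Ctsg and Prtn3 UMI per 10000 gene UMI (unequal bins), for P14 LK Ifnar+/- (2411 cells) and Ifnar-/- (3885 cells). The dashed line is the threshold of 10, and cells to its right are the 727 and 864 protease-positive cells.

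Levels are given as CPM, the UMI of a gene summed over the cells and scaled to a common total of gene UMI. Elane, neutrophil elastase, stood at 1639 CPM in Ifnar+/- and 1731 CPM in Ifnar-/- protease-positive cells, against 4.97 and 7.06 CPM in the other cells. Ctsg, cathepsin G, stood at 2379 and 2546 CPM, and Prtn3, proteinase 3, at 3599 and 3808 CPM. Prtn3 (chromosome 10, 79879667 to 79883174) and Elane (chromosome 10, 79886312 to 79888216) are neighbours in GRCm38.p6, 3137 bp apart, while Ctsg lies on chromosome 14 (56099885 to 56102574).

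The rule did not use Mpo and Ly6c2, the other markers of the label. Mpo, myeloperoxidase (chromosome 11, 87793784 to 87804412), stood at 3470 CPM in Ifnar+/- and 3450 CPM in Ifnar-/-, against 136.4 and 135.5 CPM in the other cells. Per cell, the median Mpo level was 34.8 and 33.2 UMI per 10000, against 0.348 and 0.414 in the other cells. Ly6c2, a surface protein of monocyte and granulocyte precursors, stood at 246 and 223 CPM, against 1.42 and 1.60 CPM.

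The cells varied widely in Elane, which helped to choose them, so the following shares are a description. After each cell was thinned to 7500 UMI, 3 or more Elane UMI were found in 361 of 727 Ifnar+/- cells (49.7%, 46.0 to 53.3) and in 407 of 864 Ifnar-/- cells (47.1%, 43.7 to 50.5). Unthinned, the shares were 65.1% and 60.9%. At full depth, at least 1 Elane UMI was found in 79.5% and 76.4% of the protease-positive cells, and the rest had passed the threshold through Ctsg and Prtn3. Ly6c2, which the rule did not use, had a median of 0.332 and 0.204 UMI per 10000 per cell, with a 75th percentile of 3.5 and 2.87. The cells are called by their rule and not by the name of a cell type.

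Most granule genes that the rule did not use were higher in the protease-positive cells, in the contrast that chose the cells. Of 11727 genes with at least 100 UMI in each library, 474 were at least 2-fold higher in the protease-positive than in the other cells of both libraries (4.04%) and 949 were at least 2-fold lower (8.09%). List genes were read from 20 UMI, where 4.63% of genes were 2-fold higher and 10.9% lower in both libraries. Of 8 genes for granule processing and inhibitors, 6 were at least 2-fold higher. The azurophil list has 6 genes read, of which Elane, Ctsg and Prtn3 chose the cells, so no count is given for it. Lyz2, lysozyme, stood at 114.9 and 112.7 CPM against 60.3 and 56.9. Prss57, a further granule protease, stood at 100.5 and 108.8 CPM against 10.2 and 9.76. Ms4a3, a membrane protein of granulocyte-monocyte progenitors, stood at 320.1 and 382.6 CPM against 5.18 and 5.61.

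Of the 10 genes highest against the other cells by their smaller ratio, Hp, Ly6c2 and Cebpe were found in the largest shares of cells and Prg2 in the smallest. Cebpe, the transcription factor of late granulocyte genes, stood at 79.8 and 94.0 CPM against 0.504 and 0.838. Hp, haptoglobin, stood at 107.7 and 115.2 CPM against 0.581 and 0.661, with at least 1 UMI in 72.1% and 69.4% of cells. Fcnb, ficolin B, stood at 5.45 and 4.45 CPM against 0.0153 and 0.0176. Prg2, an eosinophil granule protein, was detected in 29 cells of each library, and 1 cell held 1908 of its 2493 UMI in Ifnar+/- and 1687 of its 3281 in Ifnar-/-. Ly6c2, given above, and Cldn15, Gm21188, Olr1, Itga1 and Mgam completed this group, the last 5 at 3.61 to 30.4 CPM.

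Some regulators and receptors were higher too. Of 14 transcription factors, 8 were at least 2-fold higher in both libraries and none was lower. Cebpa, which starts the granulocyte-monocyte programme, stood at 84.8 and 76.0 CPM against 11.3 and 9.30. Gfi1, a repressor needed for neutrophil formation, stood at 36.1 and 40.8 CPM against 7.59 and 6.95. Spi1 (PU.1) stood at 204.4 and 208.2 CPM against 69.4 and 64.7. Of 16 receptors, 6 were at least 2-fold higher and none was 2-fold lower. Flt3 stood lower in the protease-positive cells, at 37.05 and 32.3 CPM against 60.8 and 48.7, and so did Kit, at 151.8 and 135.6 CPM against 217.9 and 181.6. Csf3r, the receptor for the neutrophil growth factor G-CSF, stood at 28.1 and 29.9 CPM against 9.50 and 8.77, and the Fc receptor Fcgr3 at 81.6 and 81.9 CPM against 4.80 and 3.03.

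Genes of protein export and of the oxidase followed. Of 14 genes for chaperones and translocation of the endoplasmic reticulum, 10 were at least 2-fold higher in both libraries. Among them was Calr, at 1657 and 1767 CPM against 529.8 and 581.0. Calr is also on the list of granule processing and inhibitors above, so it counts in both. Of 6 genes of the NADPH oxidase, the enzyme that makes superoxide in phagocytes, 4 were at least 2-fold higher in both libraries. Cybb, its catalytic subunit, stood at 9.65 and 7.98 CPM against 0.168 and 0.106.

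Lists of other lineages went both ways. Of 11 monocyte genes read, 9 were at least 2-fold higher in both libraries and 1 was lower, and of 9 basophil, eosinophil and mast cell genes 7 were higher and 1 lower. Of 6 dendritic genes none was higher and 1 lower, and of 9 lymphoid genes 1 was higher and 6 lower. All 10 erythroid genes, all 6 megakaryocyte genes and 7 of 8 stem cell genes read were at least 2-fold lower in both libraries. The lowest against the other cells were Trbc1, Gzmb, Cavin2, Olfr417, Col5a1, Aldh1a7, Ccl17, Aldh1a1, Asb17 and Plpp3, each at most at 1.23 CPM in the protease-positive cells. Gzmb, granzyme B, had 0 UMI in the Ifnar+/- protease-positive cells against 246 in the other cells, at least 43.9-fold lower against a floor of 3 counts over the group.

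Most genes of later neutrophils that were read were higher than in the other cells, and some of them came from few cells. Of the specific granule list, which includes Ltb4r1, all 5 genes read were at least 2-fold higher in both libraries. So were 4 of 5 late neutrophil genes, and 1 was lower. Ltf, lactoferrin, had 3 UMI in Ifnar+/- and 0 in Ifnar-/-, and Ngp had 11 and 26. Camp, the cathelicidin, had 105 and 377 UMI, of which 79 and 304 lay in 1 cell of each library. S100a9, a calcium-binding protein abundant in neutrophils, had 1141 and 3296 UMI, of which 575 and 1638 lay in 1 cell. Its partner S100a8 had 3456 and 4864 UMI, or 98.7 and 132.9 CPM against 1.51 and 1.08 in the other cells, with 719 and 1180 UMI in 1 cell and a median of 0 per cell. These sums thus weigh single cells heavily.

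Counted by cell after thinning to 7500 UMI, some cells had 3 or more UMI of the 12 genes of the specific granule list. They were 34 of 727 Ifnar+/- cells (4.68%, 3.26 to 6.47) and 45 of 864 Ifnar-/- cells (5.21%, 3.82 to 6.91). The background was 0 of 700 and 0 of 1333 cells high in erythroid genes, with median depths of 42201 and 43024 UMI. These are other called cells with 10 or more erythroid UMI per 10000, which should lack these transcripts. Protease-positive cells were left out of them by definition, which may make this background too low. Without thinning, the shares were 35.8% and 35.3%. Ltb4r1 is among these genes and counts towards the shares, here and below, although it encodes a leukotriene B4 receptor and not a granule protein. From 100 to 300 per 10000 it stood at 102.1 and 95.1 CPM, against 14.5 and 15.2 for Lcn2 and 12.2 and 4.36 for Fcnb. At 300 or more in Ifnar-/- Camp stood higher than Ltb4r1, at 506.2 against 228.8 CPM. However, 1 cell of this range held 304 of the 377 Ifnar-/- Camp UMI, so no order of the 2 genes is read. The part of Ltb4r1 in the shares was not tested. The genotypes differed in the thinned share by 0.53 percentage points (-1.68 to 2.67, Newcombe interval), and the interval includes 0. The difference was 0.59 points within male cells (-3.03 to 4.87) and 2.15 points within female cells (-1.66 to 5.03).

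Some protease-positive cells carried genes of other lineages. Monocyte genes without Ly6c2 reached 3 UMI in 219 of 727 Ifnar+/- cells (30.1%, 26.8 to 33.6) and 201 of 864 Ifnar-/- cells (23.3%, 20.5 to 26.2), against 1.71% and 1.12% of the cells high in erythroid genes. Unthinned, the shares were 64.5% and 54.5%. The monocyte list shares Irf8 and Klf4 with the transcription factors above, and Csf1r with the receptors. The part of these genes in the monocyte share was not tested. Genes of basophils, eosinophils and mast cells reached 3 UMI in 25.4% and 23.8%, and in 15.9% and 10.9% of the cells high in erythroid genes. Cpa3, a mast cell and basophil protease, alone reached 3 UMI in 19.9% and 16.7%, against 0 of 700 and 0.6002%. Unthinned, Cpa3 reached this count in 37.0% and 35.4%.

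Monocyte and specific granule genes were rarely found in the same cell. In Ifnar+/-, 3 cells reached 3 UMI of both lists, 31 of the specific granule list alone and 216 of the monocyte list alone. In Ifnar-/-, the numbers were 0, 45 and 201. Erythroid genes reached 3 UMI in 6.05% (4.43 to 8.04) and 9.72% (7.83 to 11.9) of cells, and stem cell genes in 7.57% and 9.26%, under the 25.6% and 22.6% of the cells high in erythroid genes. Unthinned, the erythroid shares were 37.3% and 41.2%. Dendritic genes did so in 8.53% and 7.87%, against 7.14% and 3.08% of the cells high in erythroid genes. Lymphoid genes reached 3 UMI in 1.38% and 1.04%, and megakaryocyte genes in 0.688% and 0.579%. In the cells high in erythroid genes the lymphoid list did so in 7 of 700 and 1.35%, and the megakaryocyte list in 2.43% and 2.70%, so neither is read as more than background.

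**Figure D2:**
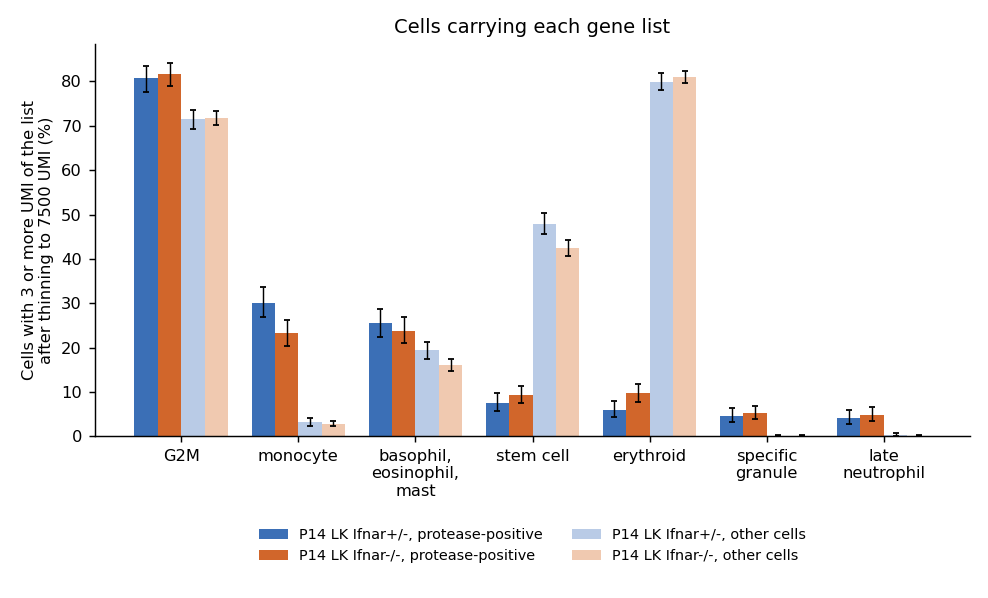
Share of cells (%) with 3 or more UMI of each gene list after thinning to 7500 UMI, with exact Clopper-Pearson 95% intervals, for protease-positive and other cells of the P14 LK libraries. Monocyte genes (without Ly6c2) were found in 30.1% of Ifnar+/- and 23.3% of Ifnar-/- protease-positive cells. Genes of the specific granule list, which includes Ltb4r1, were found in 4.68% and 5.21%.

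Most of the cells carried mitotic transcripts. G2M genes reached 3 UMI in 80.7% (77.7 to 83.6) of Ifnar+/- and 81.7% (79.0 to 84.2) of Ifnar-/- protease-positive cells, against 71.5% and 71.8% of the other cells, and unthinned in 98.2% and 98.1%. The summed levels pointed the other way. The median G2M gene was lower in the protease-positive than in the other cells, with log2 ratios of -0.43 in Ifnar+/- and -0.52 in Ifnar-/- beside -0.21 and -0.20 over all genes, so no order between the cells is read from the shares. The genotypes differed in this share by 0.97 points (-2.86 to 4.85). The difference was 2.13 points within male cells (-4.76 to 8.59) and -4.31 points within female cells (-10.1 to 2.25). In summed levels 18 of 20 G2M genes were lower in Ifnar-/-, with a median log2 ratio of -0.11 beside -0.02 over all genes. No direction is read from these values.

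Levels of many genes differed with the amount of protease RNA, though no order in time was measured. Cells were split by the protease sum at 30, 100 and 300 per 10000, which gave 238, 294, 183 and 12 Ifnar+/- cells and 288, 317, 236 and 23 Ifnar-/- cells. The range with 12 cells is not read. These ranges use the score that chose the cells, so the trends are descriptions.

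Elane was the protease that varied most. In Ifnar+/- it stood at 28.7, 739.8 and 4540 CPM over the first 3 ranges, and in Ifnar-/- at 28.4, 558.7, 4450 and 12670 CPM over all 4. Ctsg was already at 1042 and 1011 CPM in the lowest range and reached 3924 and 4257 CPM in the range from 100 to 300. Cells of the lowest range were thus positive for Ctsg, Prtn3 and Mpo with little Elane.

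Cebpe, Gfi1 and Ms4a3 were higher in each next range. Cebpe stood at 22.7, 71.2 and 156.6 CPM in Ifnar+/- and at 19.2, 91.1, 168.0 and 266.3 CPM in Ifnar-/-. Gfi1 stood at 19.1, 33.8 and 56.6 CPM in Ifnar+/-, and Ms4a3 at 32.3, 161.0 and 863.9 CPM. Genes of the specific granule list, with Ltb4r1, were found in 0.840%, 1.02% and 10.9% of cells in Ifnar+/-. In Ifnar-/- the shares were 0.347%, 1.89%, 11.4% and 47.8% (26.8 to 69.4).

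Cd34, Kit, Flt3, Cpa3 and Gata2 were lower in each next range. Cd34, a surface marker of early progenitors, stood at 346.2, 273.4 and 119.2 CPM in Ifnar+/-, and Kit at 189.9, 152.8 and 108.7 CPM. Flt3, a cytokine receptor of early progenitors, stood at 74.2, 32.5 and 2.39 CPM. Cpa3 stood at 305.5, 176.1 and 26.1 CPM and Gata2 at 96.9, 36.8 and 8.20 CPM. In Ifnar-/- the same 5 genes were also lower in each next range up to 300, with Cpa3 at 247.1, 178.7 and 19.3 CPM. Myb, a transcription factor of progenitors, went the other way, at 507.0, 560.5 and 583.4 CPM in Ifnar+/-. In Ifnar-/- it stood at 481.5, 526.8 and 579.9 CPM, and lower again at 300 or more, at 442.4 CPM.

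Irf8 and F13a1 were highest in the middle range. Irf8, a transcription factor of monocytes and dendritic cells, stood at 152.2, 179.8 and 110.2 CPM in Ifnar+/- and at 98.8, 159.1 and 101.0 CPM in Ifnar-/-, with 0 UMI in the 23 cells at 300 or more. F13a1, a monocyte gene for a clotting factor, stood at 33.5, 112.1 and 52.3 CPM and at 15.8, 86.6 and 47.1 CPM. Ly6c2, also on the monocyte list, was instead higher in each next range, at 9.29, 202.0 and 591.1 CPM in Ifnar+/- and 5.57, 163.4, 515.1 and 607.5 CPM in Ifnar-/-. The share of cells with monocyte genes other than Ly6c2 was 19.7%, 43.9% and 23.5% in Ifnar+/- and 14.2%, 34.1% and 21.6% in Ifnar-/-. Csf3r was nearly level at 29.7, 26.6 and 28.2 CPM in Ifnar+/-.

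**Figure D3:**
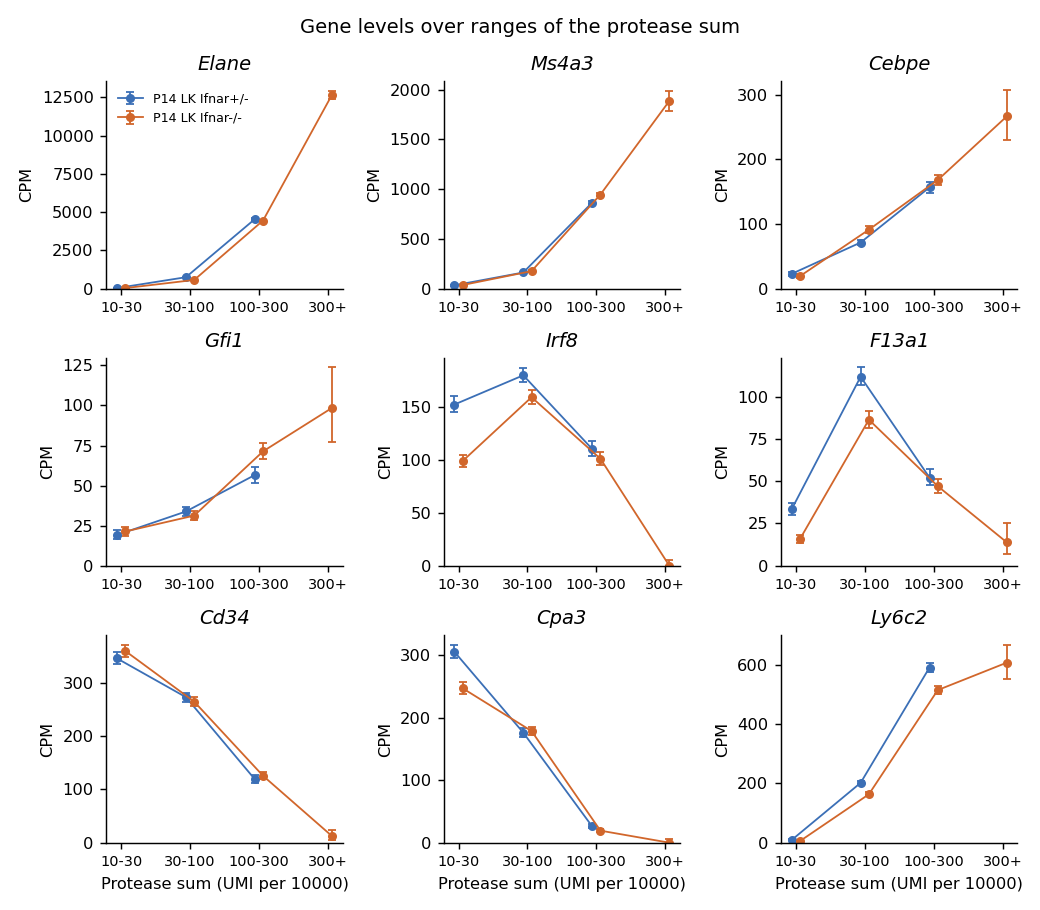
CPM of 9 genes (linear axes from 0) over ranges of the protease sum (UMI per 10000) in Ifnar+/- and Ifnar-/- protease-positive cells, with exact Poisson 95% intervals; the Ifnar+/- range of 300 or more held 12 cells and is not drawn. Elane, Ms4a3, Cebpe and Gfi1 were higher in each next range, Cd34 and Cpa3 lower, and F13a1 and Irf8 were highest between 30 and 100.

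The antibody tags were not used by the rule. The CD16/32 tag, which marks granulocyte-monocyte progenitors, had a median of 715 UMI per cell in Ifnar+/- protease-positive cells (quartiles 282 and 1200) against 25 in the other cells. In Ifnar-/- it was 559.5 against 20. In Ifnar+/- 99.2% and in Ifnar-/- 99.8% of the protease-positive cells lay above the median of the other cells of their library. Over the first 3 ranges of the protease sum the tag stood at 206.5, 769 and 1331 UMI in Ifnar+/- and 170.5, 554 and 1211 in Ifnar-/-. In the 23 Ifnar-/- cells at 300 or more it was lower than in the range before, at 892. The CD48 and CD117 tags were lower there too, at 2066 against 4364 and 585 against 825.5. Median gene UMI was 30129 against 42674.

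The CD34 tag was higher as well, at medians of 269 against 77 in Ifnar+/- and 199 against 52 in Ifnar-/-. CD150, found on stem cells and megakaryocyte and erythroid progenitors, was lower, at 7 against 53 and 8 against 63. CD117, the Kit protein by which the cells were sorted, stood at 1034 against 919.5 and 879.5 against 761. CD48 stood at 6956 against 4380 and 5968 against 3902. All tags together were 1.46-fold and 1.47-fold higher in the protease-positive cells. As a share of all tags, CD117 turned lower, at 0.791-fold and 0.808-fold, CD48 was at 1.08-fold and 1.03-fold and CD34 at 1.48-fold and 1.43-fold. CD16/32 was still 10.3-fold and 11.4-fold higher, and CD150 stayed lower, at 0.0563-fold and 0.0744-fold.

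**Figure D4:**
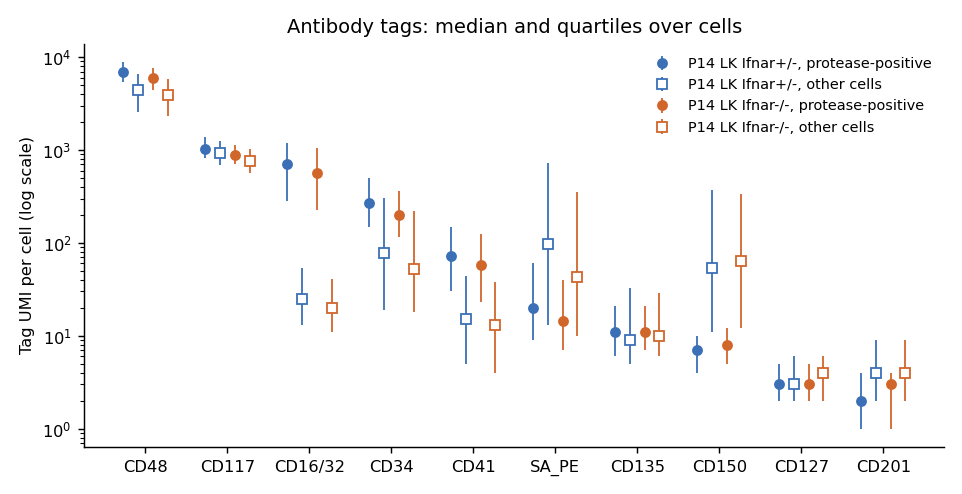
Median antibody tag UMI per cell (log axis), with quartiles as lines, in protease-positive (filled circles) and other cells (open squares) of both P14 LK libraries. CD16/32 stood at 715 and 559.5 against 25 and 20, and CD150 at 7 and 8 against 53 and 63.

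By genotype, protease-positive cells made up 30.1% (28.33 to 32.03) of called cells in Ifnar+/- and 22.2% (20.9 to 23.6) in Ifnar-/-. The difference was -7.91 percentage points (-10.2 to -5.67). Among cells with male transcripts it was -10.2 points and among cells with female transcripts -4.30 points, so the share was lower in Ifnar-/- in both. A share of cells depends on the other cells of the sort, and fewer protease-positive cells cannot be told apart from more of the others.

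Granule-processing genes were less than 2-fold apart between the genotypes. Of 10887 genes with at least 100 UMI over both libraries, 14 were at least 2-fold higher in Ifnar-/- (0.129%) and 22 at least 2-fold lower (0.202%). Within male cells 1 was higher and 27 lower, and within female cells 12 were higher and 5 lower. These subsets also held fewer cells, 400 and 230 male and 197 and 481 female, so the part of sex in the counts was not tested. The median log2 ratio of Ifnar-/- over Ifnar+/- was 0.07 over the 8 processing genes, against -0.02 over all genes read, and none was 2-fold apart. It was -0.01 for Mpo, 0.11 for Prss57 and -0.03 for Lyz2, the azurophil genes read that the rule did not use. Neither was any of the 14 transcription factors or 16 receptors. Of 6 genes of the specific granule list read from 20 UMI, 2 were at least 2-fold higher in Ifnar-/-. This stood against 0.72% of all genes, with a list median of 0.16. Camp had the highest ratio, 1.78, with 304 of its 377 Ifnar-/- UMI in 1 cell, and it turned to -2.73 among male cells. Ifnar1 itself stood at 23.8 and 19.6 CPM and Ifnar2 at 85.3 and 80.1 CPM. A 3' read does not show whether a transcript carries a targeted exon, so these levels do not check the genotype labels.

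Interferon response genes were lower in Ifnar-/-. Of 60 listed genes, 51 had at least 20 UMI in the protease-positive cells. Of these, 46 had a log2 ratio below 0 and 15 were at least 2-fold lower, against 1.09% of all genes read at that minimum, and none was 2-fold higher, against 0.72%. The list median was -0.43, and -0.29 within male and -0.35 within female cells. With 5 CPM added to each level it was -0.18, since many of these genes are low.

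Ifi27, an interferon-induced mitochondrial protein, had the clearest counts. It had 1142 UMI in Ifnar+/- and 209 in Ifnar-/-, or 32.6 CPM (30.7 to 34.6) and 5.71 CPM (4.96 to 6.54), a log2 ratio of -2.51 (-2.73 to -2.30). It was detected in 413 of 727 and 148 of 864 cells. Irf9, a subunit of the factor that carries the type I interferon signal to DNA, stood at 12.3 and 4.86 CPM, a log2 ratio of -1.34. Xaf1 stood at 9.25 and 3.61 CPM, a log2 ratio of -1.36.

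Other members rested on fewer molecules. Oas1a, an antiviral RNA sensor, had 63 and 3 UMI, Rtp4 71 and 6, Ifi27l2a 109 and 10, and Nlrc5, an activator of MHC class I genes, 48 and 6. Oas3 had 24 and 1 UMI, Ifit1 18 and 2, Oasl1 24 and 6, and Irf7 34 and 11. Oasl2, Isg15, Zbp1 and Slfn5 had log2 ratios from -1.24 to -1.05. Oas2, below the minimum, had 11 UMI against 0, at least 3.83-fold lower against a floor of 3 counts over the group.

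Abundant members moved by less. B2m, the light chain of MHC class I, stood at 386.1 CPM (379.6 to 392.7) in Ifnar+/- and 250.2 CPM (245.1 to 255.3) in Ifnar-/-, a log2 ratio of -0.63. Its chains H2-K1 and H2-D1 stood at 234.9 and 150.7 CPM and at 264.3 and 161.3 CPM, and Ifitm3 at 106.1 and 68.2 CPM. Psmb8, a subunit of the immunoproteasome, did not follow, at 444.5 and 465.8 CPM. Ifitm2 stood at 484.2 and 493.0 CPM, and Ifi204, Ifitm1 and Stat2 were the other members with a ratio above 0.

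The interferon genes differed less by genotype in the protease-positive than in the other cells. In the other cells the list median was -0.88, with 56 of 56 genes below 0 and 24 at least 2-fold lower, against 1.65% of all genes, and none 2-fold higher, against 0.515%. Of the 51 genes, 44 had a lower ratio in the other cells than in the protease-positive cells. Within Ifnar+/-, 42 of the 51 were lower in the protease-positive cells than in the other cells, with a median log2 ratio of -0.68 beside -0.21 over all genes. Isg15 stood at 1.71 CPM in these cells and 8.28 CPM in the others, and Irf7 at 0.971 and 6.22 CPM.

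**Figure D5:**
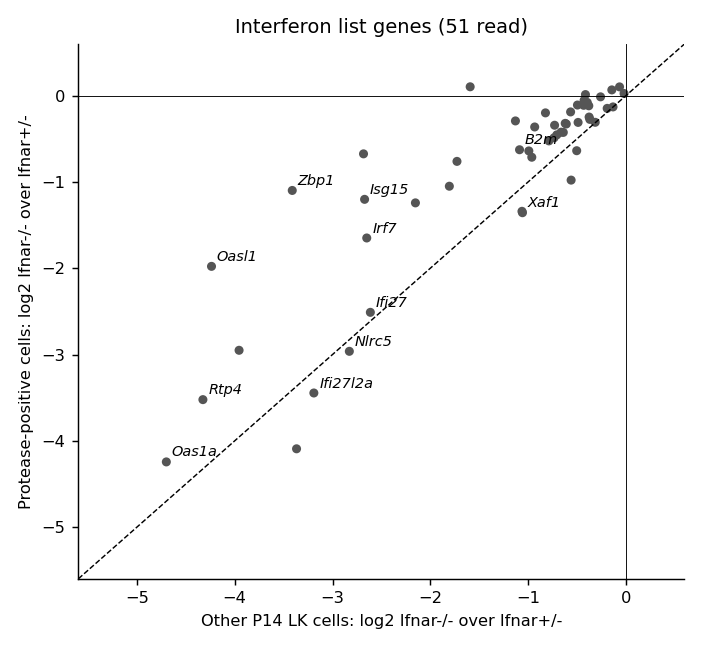
Log2 ratio of Ifnar-/- over Ifnar+/- for the 51 interferon list genes read, in other P14 LK cells (x axis) and protease-positive cells (y axis); each point is a gene and the dashed line marks equal ratios. Of the 51 genes, 44 lie above the line, and 46 have a ratio below 0 in the protease-positive cells.

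The median difference of the interferon list was smaller in cells with more protease RNA. The list median was -0.41 in the range from 10 to 30, -0.35 from 30 to 100 and -0.23 from 100 to 300, over 45, 44 and 37 genes read. Ifi27 did not follow this order. It was low in Ifnar-/- in each range, at 7.69, 4.49 and 5.42 CPM against 39.6, 30.3 and 28.0 CPM. In Ifnar-/- B2m stood at 293.1, 249.5 and 205.4 CPM against 479.0, 384.7 and 287.1 CPM. The genes read differ between the ranges, and the trend was not tested.

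Monocyte genes were lower in Ifnar-/-. The share of cells with them differed by -6.86 points (-11.2 to -2.50), by -6.83 points within male cells (-13.6 to 0.35) and by -8.67 points within female cells (-16.4 to -1.29). The interval within male cells includes 0. Of 11 monocyte genes read, 10 had a log2 ratio below 0, with a median of -0.38, and none was 2-fold apart. By range of the protease sum the median was -0.73 from 10 to 30, -0.24 from 30 to 100 and -0.16 from 100 to 300, over 11, 11 and 9 genes read. F13a1 stood at 72.0 and 52.2 CPM, Ccr2, a chemokine receptor of monocytes, at 31.97 and 23.1 CPM, and Csf1r, the receptor of the monocyte growth factor M-CSF, at 24.2 and 18.6 CPM. Irf8 stood at 151.5 and 120.9 CPM, and Cx3cr1 at 9.65 and 5.55 CPM. The same list had a median of -0.39 in the other cells. In newborn LK cells chosen by the same rule the share differed by 2.996 points the other way (-0.17 to 6.15), and the list median was 0.11, with 9 of 12 genes above 0. The difference between the ages was not tested.

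Other genes were lower in Ifnar-/- too. Wdfy1 (978 and 425 UMI), Slfn8 (145 and 49) and H2-Q4 (301 and 119) were spread over many cells. H2-Q4 has near-identical neighbours among which reads may be split, so its value is uncertain, as is that of Slfn8. Cd74, H2-Aa, Cstdc5, Stfa1 and Pf4 rested on 1 Ifnar+/- cell each, with 210 of 213, 131 of 139, 300 of 317, 347 of 421 and 400 of 499 UMI. With the highest cell of each gene left out, 17 of the 22 lower genes stayed 2-fold lower.

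Of the genes higher in Ifnar-/-, most were genes of the other cells. Rhag and Rhd, blood group proteins of red cells, had 30 and 96 UMI and 52 and 148 UMI, and stood at 31.7 and 38.0 CPM and at 47.9 and 60.4 CPM in the other cells. Mt2, a metallothionein, stood at 2.63 and 7.65 CPM, against 72.8 and 96.9 CPM in the other cells. Slc25a21, Gm15915, Myh10 and Slc38a5 were likewise low in the protease-positive cells, at 0.742 to 8.80 CPM, against 23.9 to 139.6 CPM. The erythroid list had a median log2 ratio of 0.48 over 10 genes, with 8 above 0. Of these 10, Rhd was at least 2-fold higher and Hba-a1, a globin with 34 and 13 UMI, at least 2-fold lower. The share of cells with erythroid genes was 6.05% in Ifnar+/- and 9.72% in Ifnar-/-, and with likely doublets removed 4 genes were 2-fold higher in place of 14. The part of erythroid RNA or of doublets in the genes higher in Ifnar-/- was not tested.

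Epx, Camp and S100a9 were also higher in Ifnar-/-, by log2 ratios of 2.69, 1.78 and 1.47. Epx was found in 2 Ifnar+/- and 13 Ifnar-/- cells, and 1 of the latter held 179 of its 232 UMI. Its ratio was 0.80 among male cells, 7.55 among female cells and 6.69 at a protease sum of 20 or more. Camp and S100a9 were lower in Ifnar-/- among male cells, with log2 ratios of -2.73 and -1.37, and higher among female cells, with 6.11 and 4.08, so no direction is read for them.

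Set against newborn LK cells chosen by the same rule, the P14 cells had lower levels of specific granule and late neutrophil genes. Of 11306 genes with at least 100 UMI per pair, 116 were at least 2-fold higher at P14 in both genotypes (1.03%) and 180 at least 2-fold lower (1.59%). The specific granule list, with Ltb4r1, reached 3 UMI in 11.6% and 12.2% of the newborn cells against 4.68% and 5.21% at P14. Median depths were 45448 and 36017 against 46304 and 40533 UMI. Camp stood at 235.8 and 295.7 CPM in newborn cells against 2.997 and 10.3 CPM, and S100a9 at 926.5 and 930.7 CPM against 32.6 and 90.03 CPM. Of 8 genes of the specific granule list read from 20 UMI, 6 were 2-fold lower in both genotypes and none higher. The shares of all genes were 2.59% lower and 1.68% higher. Of 5 late neutrophil genes read, 4 were 2-fold lower in both genotypes and none higher, beside the same shares of all genes. Mpo, which the rule did not use, stood at 3744 and 3955 CPM in newborn cells against 3470 and 3450 CPM.

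Cstdc4, Stfa1 and Stfa2l1, stefin family genes among which reads may be split, were the lowest at P14 with Ndufa4l2, Cma1 and Tpsb2. Ndufa4l2, a mitochondrial protein induced by low oxygen, had 0 UMI in the protease-positive cells of both P14 libraries against 435 and 836 in the newborn cells, at least 67.6-fold and 149.5-fold lower against a floor of 3 counts over the group. Tpsb2, a mast cell tryptase, had 0 UMI in these cells against 746 and 105. Dntt, the DNA polymerase that adds bases at antigen receptor joints, was higher at P14, with 179 and 168 UMI against 0 and 2, in 36 and 48 cells. The other P14 LK cells held more of it, at 66.6 and 65.1 CPM against 5.11 and 4.59 CPM in the protease-positive cells. I730030J21Rik, Neurl1b, Hist1h2ao, Msantd3 and Bpifc were higher at P14 too.

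Interferon genes were lower at P14 than in newborn cells in Ifnar+/-. Their median log2 ratio of P14 over newborn was -1.13 in Ifnar+/-, with 29 of 55 genes at least 2-fold lower (4.53% of all genes) and 1 higher (3.49%). In Ifnar-/- it was 0.29, with 4 of 44 genes lower (4.42%) and 1 higher (3.18%). Ifi27 stood at 126.2 CPM in newborn Ifnar+/- cells and 32.6 CPM at P14. The median ratio of the genotypes was -1.80 in newborn cells, with 39 of 55 genes at least 2-fold lower (1.52% of all genes) and none higher (0.855%), against -0.43 at P14. These comparisons share libraries, since the age ratios use the same P14 and newborn libraries as the genotype ratios. Sex genes also differed with age, at a median log2 ratio of 1.08 over 6 genes in Ifnar+/- and 0.37 in Ifnar-/-, and their part in the result was not tested.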

How the data were processed

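The authors deposited raw UMI counts per feature and barcode, unfiltered and not normalized, for 8 libraries. The file headers name Cell Ranger 4, and the submitters' processing notes name Cell Ranger 6.0.1 and mm10. Counts were summed over cells and scaled to CPM, and 0.5 counts were added before log2 ratios. Intervals are exact Poisson for levels, binomial for ratios, Clopper-Pearson for shares and Newcombe for differences of shares (Python 3.11.15, scipy 1.17.1, statsmodels 0.14.6). The calculations were tested on simulated data. Doublets were kept, and an alternative removed the highest Scrublet scores (scanpy 1.11.5) at 0.8% per 1000 cells, 47 and 121 cells. Another alternative used TMM factors of edgeR 4.0.16. The protease-positive cells held 35029807 and 36610693 UMI. In empty barcodes of at most 100 UMI, Elane stood at 456.1 and 379.7 CPM, so free RNA carries it. Besides list genes, the 10 genes (age: 6) with the highest and lowest ratios were named. Members and lists were chosen with earlier results of these data known. Coordinates are from RefSeq, GRCm38.p6.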

Additional observations from a re-analysis of the deposited data

Results flagged for a closer look

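The genotype difference in the share of protease-positive cells had opposite directions at the 2 ages. In P14 LK cells the share was lower in Ifnar-/- by -7.91 percentage points (-10.2 to -5.67), and in P0 LK cells it was higher by 4.01 points (2.37 to 5.65). With 1 library per group, the difference between the ages was not tested.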

How the results depend on the processing

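Repeated under the other settings, the log2 ratios of single genes stayed within their counting interval in 249 cases, moved beyond it in 41 and reversed in 4. The genes at least 2-fold higher in Ifnar-/- (14) were 22 with a protease sum of 5 or more, 4 without likely doublets, 1 in cells with male transcripts, 1 with 5 CPM added, 93 from 20 UMI, 1479 with no minimum above 1 UMI and 51 at 1.5-fold. The genes 2-fold lower (22) were 5 in cells with female transcripts, 4 with 5 CPM added, 141 from 20 UMI, 1647 with no minimum above 1 UMI, 116 at 1.5-fold and 14 without the highest cell of each gene, where fewer genes reached the minimum. The interferon list median was -0.18 with 5 CPM added. The share of protease-positive cells differed by -10.2 points among male and -4.30 among female cells, and the G2M share by -4.31 among female cells. Among male cells the log2 ratio was -2.73 for Camp, -1.35 for S100a8, -1.37 for S100a9 and -0.12 for Prg3, each reversed, and the cause was not tested. At a minimum of 5000 UMI the thinned shares could not be computed. No paired analysis was possible because each group had 1 library. The settings by sex transcripts, without the highest cell, and without cells carrying basophil, eosinophil and mast genes were chosen after seeing the data.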

Other observations

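In medians per cell the CD41 tag was higher, while the RNA of its gene, summed over cells, was lower. The tag had medians of 73 against 15 UMI per cell in Ifnar+/- and 58 against 13 in Ifnar-/-, higher in the protease-positive cells, while Itga2b RNA stood at 10.7 against 27.1 CPM and 10.9 against 25.2 CPM. As a share of all tags, CD41 was nearer level, at 1.12-fold and 1.06-fold higher. A median per cell and a sum over cells are unlike measures, so no opposite direction is read.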
